A study of Mus musculus with 2 samples.

Results

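Cycling monocyte progenitors were examined in mouse bone marrow as the barcodes that carried RNA of the monocyte lineage together with RNA of dividing cells. A barcode, which stands for 1 captured cell, was taken as a member when it held at least 1 UMI (unique molecular identifier, the tag of 1 captured RNA molecule) of Csf1r, at least 4 UMIs of F13a1, Fn1, Ccr2 and Ms4a6c together and at least 2 UMIs of Mki67 and Top2a together. It also had to hold no UMI of Siglech, a gene of plasmacytoid dendritic cells, and less than 2% of its UMIs from Camp, Ngp and Ltf, genes of neutrophil granules. Barcodes with 200 to 9000 detected genes, at most 30% mitochondrial UMIs and at least 2000 UMIs were kept for this. The rule found 806 members among 11761 kept barcodes. The values of these genes chose the members, so their levels are given as a description.

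The study profiled bone marrow by droplet-based 3′ scRNA-seq to ask how loss of Map4k4, a kinase upstream of JNK and p38 signalling, affects blood cell formation. There was 1 library labelled Ctrl and 1 labelled cKO. Both came from mice 13 to 14 weeks old on a C57BL/6 background. Each was a mixture of 2 parts of cells enriched for c-Kit by magnetic beads and 3 parts of whole bone marrow after lysis of red cells, so shares of cell types are those of a mixture and not of marrow. In the cKO mice, both Map4k4 alleles were floxed, and poly I:C was given weeks before sampling to induce Mx1-Cre, which answers to interferon in blood cells and in other tissues too. The methods write the control littermates as Mx1-Cre Map4k4 -/-, a notation that leaves their alleles unclear, so they carried the Cre as well, and whether they received poly I:C is not given in the sources used here. The number of animals behind a library is not given in the sources used here.

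Monocytes arise in the marrow from granulocyte-monocyte progenitors, which divide and load primary granules with proteases such as elastase before the monocyte and neutrophil lineages part. Irf8 and Klf4 are transcription factors that drive the monocyte fate, Csf1r is the receptor for the growth factor M-CSF, and Ccr2 is the chemokine receptor with which Ly6C-high monocytes leave the marrow. Committed monocyte progenitors still divide, while the monocytes they form mostly do not.

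The library labelled Ctrl held 10220 barcodes with 71527701 UMIs and the library labelled cKO 6872 barcodes with 64393950 UMIs. After the filters, 7252 barcodes with 68160121 UMIs and 4509 barcodes with 62090090 UMIs remained. Members numbered 555 in the library labelled Ctrl, or 7.65% of its kept barcodes (95% interval 7.05 to 8.29), and 251 in the library labelled cKO, or 5.57% (4.92 to 6.28). The log2 ratio of the shares, cKO over Ctrl, was -0.46. All intervals here are exact 95% binomial intervals that cover counting error only. With 1 library for each label, differences between the labels cannot be set against a spread of replicates, and p-values are left out.

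Members were among the deepest barcodes of both libraries. Their median was 15025 UMIs in the library labelled Ctrl against 5954 in the other kept barcodes, and 23828 in the library labelled cKO against 10077. A rule that asks for UMIs of several genes is met more easily by deep barcodes. When every barcode was thinned to 2000 UMIs before the rule was applied, 80 and 25 members remained, or 1.10% and 0.554% of kept barcodes. The share was lower in the library labelled cKO both ways.

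Map4k4 (ENSMUSG00000026074, GRCm38 chr1:39900913-40026310), the targeted gene, lay at similar levels in the members of both libraries. Members held 844 UMIs of it in the library labelled Ctrl, or 90.5 CPM (UMIs of the gene per 1e+06 UMIs of the members; 84.5 to 96.8), and 653 in the library labelled cKO, or 97.5 CPM (90.1 to 105). The log2 ratio was 0.11 (-0.04 to 0.26), against -0.17 in the other kept barcodes. In the non-cycling monocyte-type barcodes described further on, Map4k4 was lower in the library labelled cKO. Counts of 3′ tags per gene do not show which exons were transcribed, so they do not check a deletion of part of the gene. The level of Map4k4 in these counts is therefore no check of the labels. A further limit is that 3010 barcode sequences occur in both libraries, 2259 of them among the kept barcodes of both and 28 among the members of both. The barcodes of 263 members labelled Ctrl and 164 labelled cKO occur in the other library. Without every such barcode, members made up 6.34% and 4.37% of kept barcodes, which leaves the order of the libraries as it was.

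Each step of the rule removed barcodes in both libraries. In the library labelled Ctrl, 1389 kept barcodes had Csf1r, 838 of these reached the sum of monocyte genes, 587 also the sum of cycle genes, 573 of those had no Siglech, and 555 met the limit on granule genes. In the library labelled cKO these numbers were 886, 412, 256, 254 and 251. Just inside the limits, 47 and 19 members had exactly 2 UMIs of Mki67 and Top2a, and just outside, 95 and 28 barcodes had 1 UMI. Genes of S phase made up 0.330% and 0.250% of the UMIs of the former and 0.147% and 0.192% of the latter. On the side of Csf1r, 200 members labelled Ctrl had 1 UMI, with Ly6c2 at 2185 CPM, and 254 barcodes that met every other condition had none, with Ly6c2 at 1924 CPM. The numbers labelled cKO were 67 at 2263 CPM and 88 at 2151 CPM. Ly6c2 does not tell these barcodes from other cycling progenitors, since it lay at 2226 and 2175 CPM in cycling barcodes rich in primary granule RNA, which had no Csf1r and are described further on as granule-rich progenitors.

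The name of the group was checked against markers outside the rule. After members were thinned to 2000 UMIs each, Ly6c2, a surface protein of inflammatory monocytes, was found in 91.5% of members labelled Ctrl and 90.4% of those labelled cKO. Irf8 was found in 62.7% and 49.8%, and Klf4 in 34.1% and 27.9%. Cd34, a marker of progenitors, was found in 14.4% and 10.0%. Ly86 was found in 37.1% and 30.3%, and Zeb2 in 53.9% and 39.4%. Mpeg1 was found in 45.6% and 39.4%, and Ctss in 36.76% and 39.04%. Other monocyte markers were found in fewer members, Cd68 in 9.19% and 20.7%, Cx3cr1 in 10.3% and 6.37%, and Fcgr1 in 2.34% and 2.79%. The progenitor marker Kit was found in 11.7% and 6.77%, and Flt3 in 2.703% and 2.789%. Of these markers, Ly6c2 alone was found in most members of both libraries, and it was as common in cycling granule-rich progenitors (89.1% and 89.4%) and in cycling neutrophil precursors (88.4% and 92.1%), while Ly86 was found there in at most 1.39%. Granulocyte genes were common in members, with Mpo in 79.8% and 66.1% and Ngp in 73.3% and 45.8%. B-lineage barcodes were chosen by at least 5 UMIs of Cd79a and Cd79b together, outside the other groups compared here. They had Mpo in 63.9% labelled Ctrl and in 8 of 40 labelled cKO, and Ngp in 93.3% and in 22 of 40. B cells should lack both, but the part of mixed barcodes in this group was not tested. Its summed counts held Elane at 312 and 2300 CPM and Ly6c2 at 279 and 966 CPM. The T cell gene Cd3e and the dendritic gene Xcr1 were found in 0% of thinned members, where 3 counts would be a share of 0.541% labelled Ctrl and 1.20% labelled cKO, and with all UMIs each was found in 1 member of each library. Other dendritic genes were found in a few members. Clec9a was found in 0.360% and 1.20% of thinned members, and in 2.16% and 1.99% with all UMIs. Cd209a was found in 0.541% and 0% of thinned members. The macrophage gene C1qa was found in 0.541% and 0% of thinned members, and Hbb-bs in 13.9% and 0%. Ly6c2 has a near-identical neighbour, Ly6c1, and reads shared by the pair could be split in counting.

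Against the other kept barcodes, members held more RNA of most listed monocyte genes and less of secondary granule and erythroid genes. Of 13548 genes outside the rule with enough UMIs, 738 were at least 2-fold higher in members in both libraries, with intervals clear of no change (5.45% of genes), and 964 were at least 2-fold lower (7.12%). The higher genes numbered 373 under median-of-ratios scaling and 1407 with the mean of per-barcode proportions. Of 40 genes of the monocyte lineage, 29 were higher and 1 was lower. None of 15 genes of secondary and gelatinase granules, which mark neutrophils, was higher and 15 were lower, and of 13 erythroid genes 12 were lower. Of 25 myeloid transcription factors 5 were higher and 2 were lower, and of 10 genes of MHC class II 2 were higher and 4 were lower. These comparisons describe the members, since the genes of the rule track with many of those counted.

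Klf4 (chr4:55527143-55532466) led the genes outside the rule. It lay at 200 CPM in members and 27.7 CPM in other kept barcodes of the library labelled Ctrl, and at 166 CPM and 9.03 CPM in the library labelled cKO. The log2 ratios of members over others were 2.85 and 4.20. Irf8 (chr8:120736358-120756694) lay at 606 CPM in members against 107 CPM labelled Ctrl, and at 421 CPM against 25.9 CPM labelled cKO, log2 ratios of 2.5 and 4.02. Both factors of the monocyte fate were thus several-fold higher in members of both libraries. Ly86, the partner of the Toll-like receptor relative CD180, lay at 205 and 192 CPM in members, with log2 ratios of 2.61 and 3.73. Lgals1, a galactose-binding lectin, lay at 952 and 1203 CPM with log2 ratios of 2.71 and 3.55, and S100a10, a partner of annexin A2, at 459 and 640 CPM with 2.45 and 3.64. S100a4, a calcium-binding protein tied to cell movement, lay at 432 and 656 CPM with log2 ratios of 2.31 and 2.86. The remaining genes of the 12 highest were Gria3, a glutamate receptor subunit, Ass1, an enzyme of arginine synthesis, Tifab, Rassf4, BC035044 and Pld4, an endolysosomal exonuclease, with log2 ratios between 2.23 and 3.5. Lyz2, the lysozyme of monocytes and neutrophils, was lower in members than in other kept barcodes, at 3555 CPM against 4878 CPM labelled Ctrl and 5954 CPM against 8974 CPM labelled cKO.

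**Figure D1:**
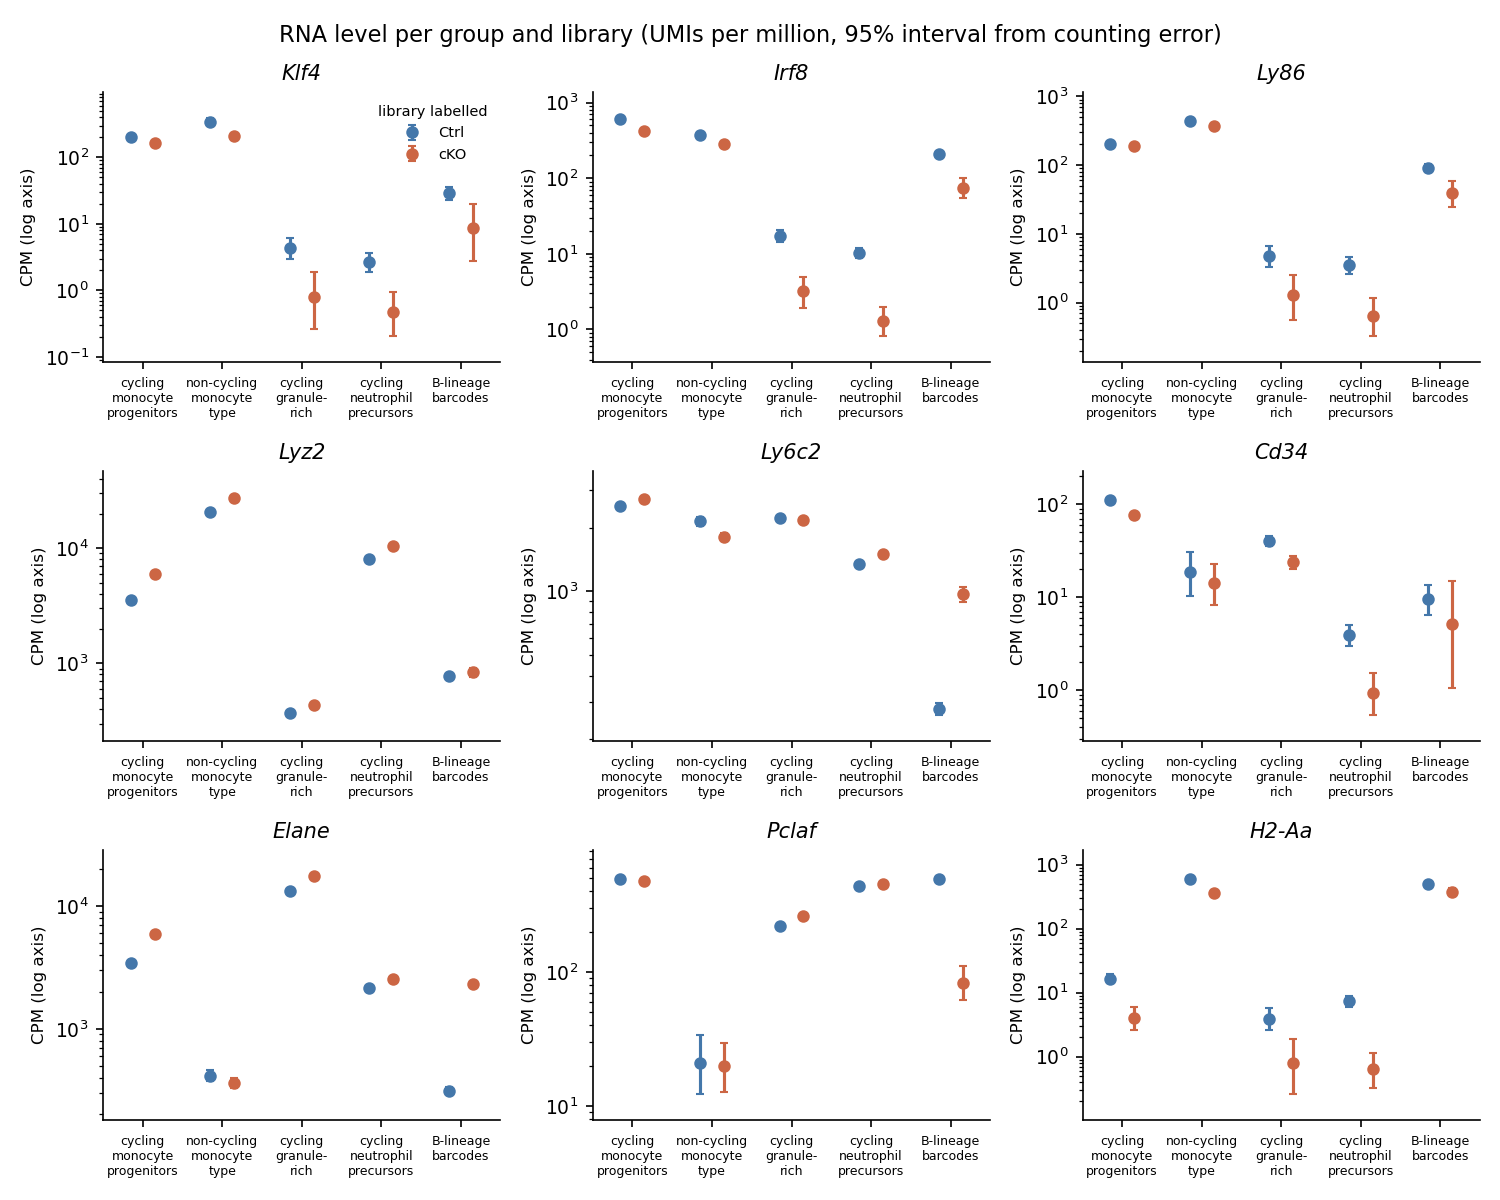
Level of 9 genes in 5 groups of barcodes of each library, in CPM on a log axis, with 1 point for each library and bars for the 95% interval from counting error. Klf4 and Irf8 are highest in members and in non-cycling monocyte-type barcodes, Pclaf is lowest in the non-cycling ones, and H2-Aa is high in non-cycling monocyte-type and B-lineage barcodes and low in members.

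The closest comparison is with barcodes that met the same rule but had no UMI of Mki67 or Top2a, 148 in the library labelled Ctrl and 126 in the library labelled cKO. These non-cycling monocyte-type barcodes were shallower, with a median of 4998.5 UMIs labelled Ctrl. Of 10875 genes, 1178 were at least 2-fold higher in members in both libraries (10.8%) and 881 were lower (8.10%). Members held more RNA of progenitors and of primary granules and less of mature monocytes, beside more RNA of the cell cycle, by which the groups were split. Of 43 genes of S phase 38 were higher in members and none was lower, and of 52 genes of G2/M 47 were higher and none was lower. Of 19 progenitor genes 12 were higher, and of 12 genes of primary granules 9 were higher and 1 was lower. In the other direction, 25 of 40 monocyte genes, 22 of 28 genes of the interferon response and 6 of 10 genes of MHC class II were lower in members.

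Pclaf (chr9:65890237-65903266), which binds the replication clamp PCNA, lay at 491 CPM in members and 21 CPM in the non-cycling barcodes of the library labelled Ctrl, and at 478 and 20 CPM in the library labelled cKO. Its log2 ratios of 4.55 and 4.58 were nearly equal in both libraries. Kif15, a kinesin of the mitotic spindle, lay at 153 against 6.18 CPM and at 104 against 0.832 CPM, and the second of these rests on 1 UMI in the non-cycling barcodes. Prc1, which bundles microtubules at the division plane, had log2 ratios of 4.40 and 5.49, the latter with an interval from 3.94 to 7.77 since 3 UMIs lie behind it in the non-cycling barcodes. The kinetochore genes Knl1 and Spc24 and the condensin gene Smc2 had log2 ratios between 3.42 and 5.32. Of the 12 highest genes, 6 were replication-dependent histones of the Hist1 cluster, among them Hist1h3c at 761 and 349 CPM in members. Histone genes of the cluster are nearly identical and mostly lack the poly(A) tail that the 3′ method captures, so their levels are uncertain.

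Progenitor genes gave the same direction. Kit, the receptor for stem cell factor, lay at 80.4 CPM in members against 13.6 CPM in non-cycling barcodes labelled Ctrl, and at 44.3 against 10.8 CPM labelled cKO. Cd34 lay at 112 against 18.5 CPM and at 75.8 against 14.1 CPM, and Myb, a transcription factor of immature blood cells, at 387 against 63.0 CPM and at 273 against 30.8 CPM. All of these were over 4-fold higher in members by the summed counts, since the log2 ratios lay between 2.03 and 3.15. Irf8 was also higher in members than in non-cycling barcodes, by log2 ratios of 0.72 and 0.58, while Klf4 was lower by ratios of -0.79 and -0.32. Map4k4 was lower in members as well, at 90.5 against 239 CPM labelled Ctrl and at 97.5 against 150 CPM labelled cKO. Within the non-cycling barcodes it was thus lower labelled cKO than labelled Ctrl, at 150 and 239 CPM.

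Genes of antigen presentation by MHC class II were among the 8 lowest against non-cycling barcodes. H2-Aa (chr17:34282744-34287823), a chain of the class II molecule I-A, lay at 16.4 CPM in members against 603 CPM in non-cycling barcodes labelled Ctrl, and at 4.03 against 360 CPM labelled cKO. With all UMIs, H2-Aa was found in 19 of 148 non-cycling barcodes labelled Ctrl (12.8%) and 14 of 126 labelled cKO (11.1%), and in 9.19% and 5.18% of members, so most barcodes of these groups had none. Cd74, the invariant chain that guides class II molecules, had log2 ratios of -5.25 and -6.25 and was found with all UMIs in 37.8% and 36.5% of non-cycling barcodes and 20.9% and 11.2% of members. H2-Eb1 and H2-Ab1 followed with ratios between -4.40 and -6.86. Other genes among the 8 lowest were Hpgd, which breaks down prostaglandins, Pla2g7, a secreted phospholipase, Sirpb1c and Apoe, the apolipoprotein of macrophages, with log2 ratios between -3.96 and -4.95. All 8 were far lower in the summed counts of members in both libraries. Lyz2 stood at 20424 and 27444 CPM in the non-cycling barcodes, log2 ratios of -2.52 and -2.20.

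Promoter sequences of 1 granule gene and 2 cycle genes are shown to place the motifs of factors known for such genes. Each covers the 150 bases before the RefSeq start (GRCm38.p6, 5′ to 3′ on the plus strand, where all 3 genes lie), and capitals mark the motif. GAGGAA is the core that the myeloid factor PU.1 binds, and TTTGAA or TTTAAA is the cell cycle genes homology region (CHR) bound by the DREAM and MuvB complexes. The GENCODE start of each gene lies inside its window, before the RefSeq start. Elane encodes neutrophil elastase, at chr10:79886162-79886311, and Kif15 and Prc1, for which the windows are chr9:122950931-122951080 and chr7:80294326-80294475, are among the 12 genes highest over non-cycling barcodes.
Elane: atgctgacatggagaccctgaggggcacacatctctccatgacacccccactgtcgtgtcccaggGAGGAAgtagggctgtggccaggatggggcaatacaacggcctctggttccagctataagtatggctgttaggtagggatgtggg
Kif15: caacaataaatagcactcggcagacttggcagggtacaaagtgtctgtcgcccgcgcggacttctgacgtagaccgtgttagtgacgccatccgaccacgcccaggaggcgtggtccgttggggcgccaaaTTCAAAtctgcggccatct
Prc1: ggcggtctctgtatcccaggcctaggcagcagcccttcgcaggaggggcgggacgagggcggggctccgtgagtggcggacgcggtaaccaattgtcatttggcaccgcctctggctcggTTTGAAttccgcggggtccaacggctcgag

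In Kif15 the match is on the minus strand, so the capitals read as its reverse complement, TTCAAA. Over the 250 bases before each RefSeq start, searched on both strands, the CHR letters occurred in 3 of the 5 genes with an entry among the 12 highest over non-cycling barcodes, Kif15, Prc1 and Smc2, against 28.1% of all 27025 genes and 25.2% of their 32851 promoters. They also occurred in Ctsg of the 4 granule genes and in 2 of 6 genes with an entry among the 8 lowest, Apoe and Sirpb1c. TTTAAA is its own reverse complement, so its strands count once. GAGGAA occurred in all 4 of Mpo, Elane, Prtn3 and Ctsg, in 25.9% of all genes and 23.3% of all promoters, in 2 of the 6 lowest and 1 of the 5 cycle genes, and in 1 of the 9 genes with an entry among the 12 highest over other kept barcodes. GCGGGAAA or GCGCGAAA, an E2F core, occurred in none of the 5 cycle genes and in 1.33% of all genes and 1.15% of all promoters. A match describes letters in a window and not a bound site, and no match says only that these letters are absent from it.

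A second comparison set members beside cycling barcodes of the granulocyte side. Cycling granule-rich progenitors numbered 432 labelled Ctrl and 284 labelled cKO. They had at least 1% of their UMIs from Mpo, Elane, Prtn3 and Ctsg, the enzymes of primary granules. They had at least 2 UMIs of Mki67 and Top2a together, no Csf1r, and fewer than 4 UMIs of F13a1, Fn1, Ccr2 and Ms4a6c together. Of 11362 genes, 929 were at least 2-fold higher in members in both libraries (8.18%) and 328 were lower (2.89%). Of 40 monocyte genes 35 were higher in members and none was lower, and of 25 genes of the interferon response 12 were higher. Members had to reach the limit on monocyte genes of the rule that this group had to stay under. The count of monocyte genes is thus a description, since the genes of the rule track with many of them. Of 12 primary granule genes 10 were lower, 4 of which are the genes that chose the granule-rich group, and of the cycle genes none of 43 of S phase and 3 of 52 of G2/M passed. Depth was close here, with a median of 16263.5 UMIs in granule-rich progenitors labelled Ctrl.

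Against granule-rich progenitors, Irf8 was higher in members by log2 ratios of 5.13 and 7.05 and Klf4 by 5.52 and 7.70. Map4k4 was also higher, by ratios of 2.94 and 2.75. Ly6c2 was not set apart, with ratios of 0.19 and 0.33, so this marker of monocytes was at nearly the same level in cycling granule-rich barcodes. Elane was lower in members by ratios of -1.95 and -1.55, and Mpo, myeloperoxidase, by -1.17 and -1.12, but both were abundant in members, Elane at 3461 and 5987 CPM and Mpo at 5350 and 5607 CPM. Cd34 was higher in members, by ratios of 1.48 and 1.68, and Kit was lower by -0.52 and -0.54. Cycling neutrophil precursors, which carry secondary granule RNA, were also chosen with no Csf1r and fewer than 4 UMIs of F13a1, Fn1, Ccr2 and Ms4a6c together. Against them, 4435 of 11640 genes were at least 2-fold higher in members (38.1%) and 650 lower (5.58%). The higher ones held 35 of 40 monocyte genes, again a description. Secondary and gelatinase granule genes took 36.7% and 40.3% of the UMIs of these precursors, against 0.825% and 0.814% in members. CPM is a share of all UMIs, so this difference raises the ratios of other genes in members.

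Members were far from uniform in primary granule RNA. The summed share of Mpo, Elane, Prtn3 and Ctsg in a member's UMIs ran from 0% to 5.78% in the library labelled Ctrl, with a median of 0.756%, and from 0.0258% to 6.78% in the library labelled cKO, with a median of 0.955%. Under 0.3% lay 202 members labelled Ctrl (36.4%) and 93 labelled cKO (37.1%), and at 1% or more lay 238 (42.9%) and 125 (49.8%). Of the non-cycling barcodes, 95.9% and 97.6% lay under 0.3%. About as many members, by share, were thus without much granule RNA in both libraries.

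**Figure D2:**
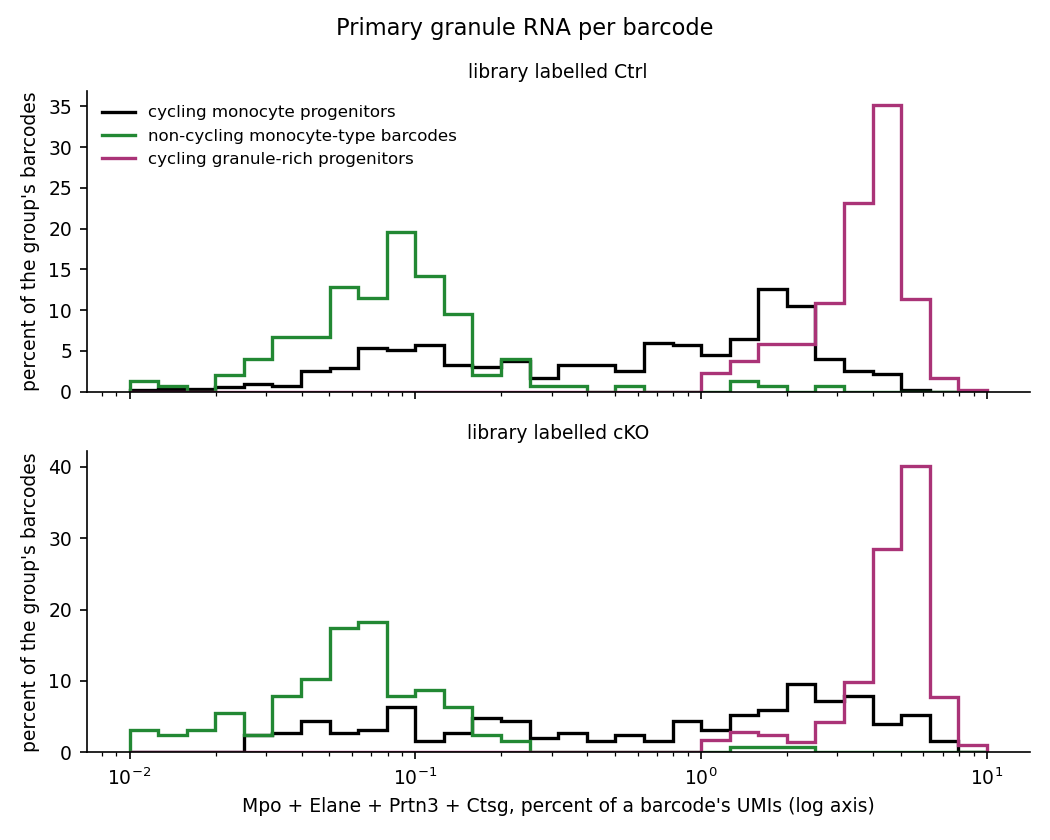
Distribution over barcodes of the share of UMIs from Mpo, Elane, Prtn3 and Ctsg, in percent on a log axis, for members, non-cycling monocyte-type barcodes and cycling granule-rich progenitors of each library. Members spread over the whole range, from the low values of non-cycling barcodes to those of granule-rich progenitors, with medians of 0.756% and 0.955%.

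To describe this spread, members of each library were ranked by that share and split into 3 equal groups, of 185 barcodes each labelled Ctrl and of 84, 84 and 83 labelled cKO. The 4 enzymes chose the split and are not counted. Depth went with it, with a median of 9190 UMIs in the low tertile and 22219 in the high tertile labelled Ctrl, and of 15529 and 35703 labelled cKO. Of 10141 genes, 1166 were at least 2-fold higher in the low than in the high tertile in both libraries (11.5%) and 617 were lower (6.08%). The low tertile carried RNA of maturing monocytes and the high tertile RNA of granulocyte-monocyte progenitors.

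Among genes that were higher in the low tertile, S100a4 lay at 1537, 263 and 19.8 CPM in the low, middle and high tertiles labelled Ctrl, and at 2199, 476 and 37.6 CPM labelled cKO. Lyz2 lay at 11990, 2085 and 543 CPM and at 19728, 4076 and 675 CPM. Lgals3, a lectin of macrophages, had log2 ratios of low over high of 5.36 and 5.85, and Ahnak, a large membrane scaffold protein, of 5.86 and 6.60. Klf4 lay at 431, 217 and 72.0 CPM and at 405, 183 and 32.3 CPM. Each of these genes stepped down from the low through the middle to the high tertile of both libraries. Fn1, a gene of the rule, lay at 1830 CPM in the low and 7.35 CPM in the high tertile labelled Ctrl, so members of the high tertile were chosen mostly by other genes of the sum.

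Among genes that were lower in the low tertile, Ms4a3, a membrane protein of granulocyte-monocyte progenitors, lay at 25.7, 209 and 926 CPM labelled Ctrl and at 25.2, 359 and 1423 CPM labelled cKO. Nkg7, a granule membrane protein, lay at 20.8, 100.1 and 499 CPM and at 12.6, 141 and 956 CPM. Kit lay at 22.8, 77.8 and 111 CPM and at 7.70, 45.9 and 61.2 CPM, and Cdk6, a kinase of cycle entry, at 125, 436 and 498 CPM and at 51.1, 380 and 451 CPM. Cd34 took another course, with its highest level in the middle tertile of both libraries, at 33.2, 150 and 121 CPM and at 20.3, 122 and 64.7 CPM. Irf8 was also highest in the middle tertile but lowest in the high tertile, at 554, 751 and 516 CPM and at 437, 532 and 321 CPM. Ly6c2 varied little, between 2165 and 2804 CPM labelled Ctrl and between 2578 and 2868 CPM labelled cKO. Map4k4 followed the monocyte genes, at 185, 90.8 and 43.4 CPM labelled Ctrl and at 206, 96.5 and 44.2 CPM labelled cKO.

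**Figure D3:**
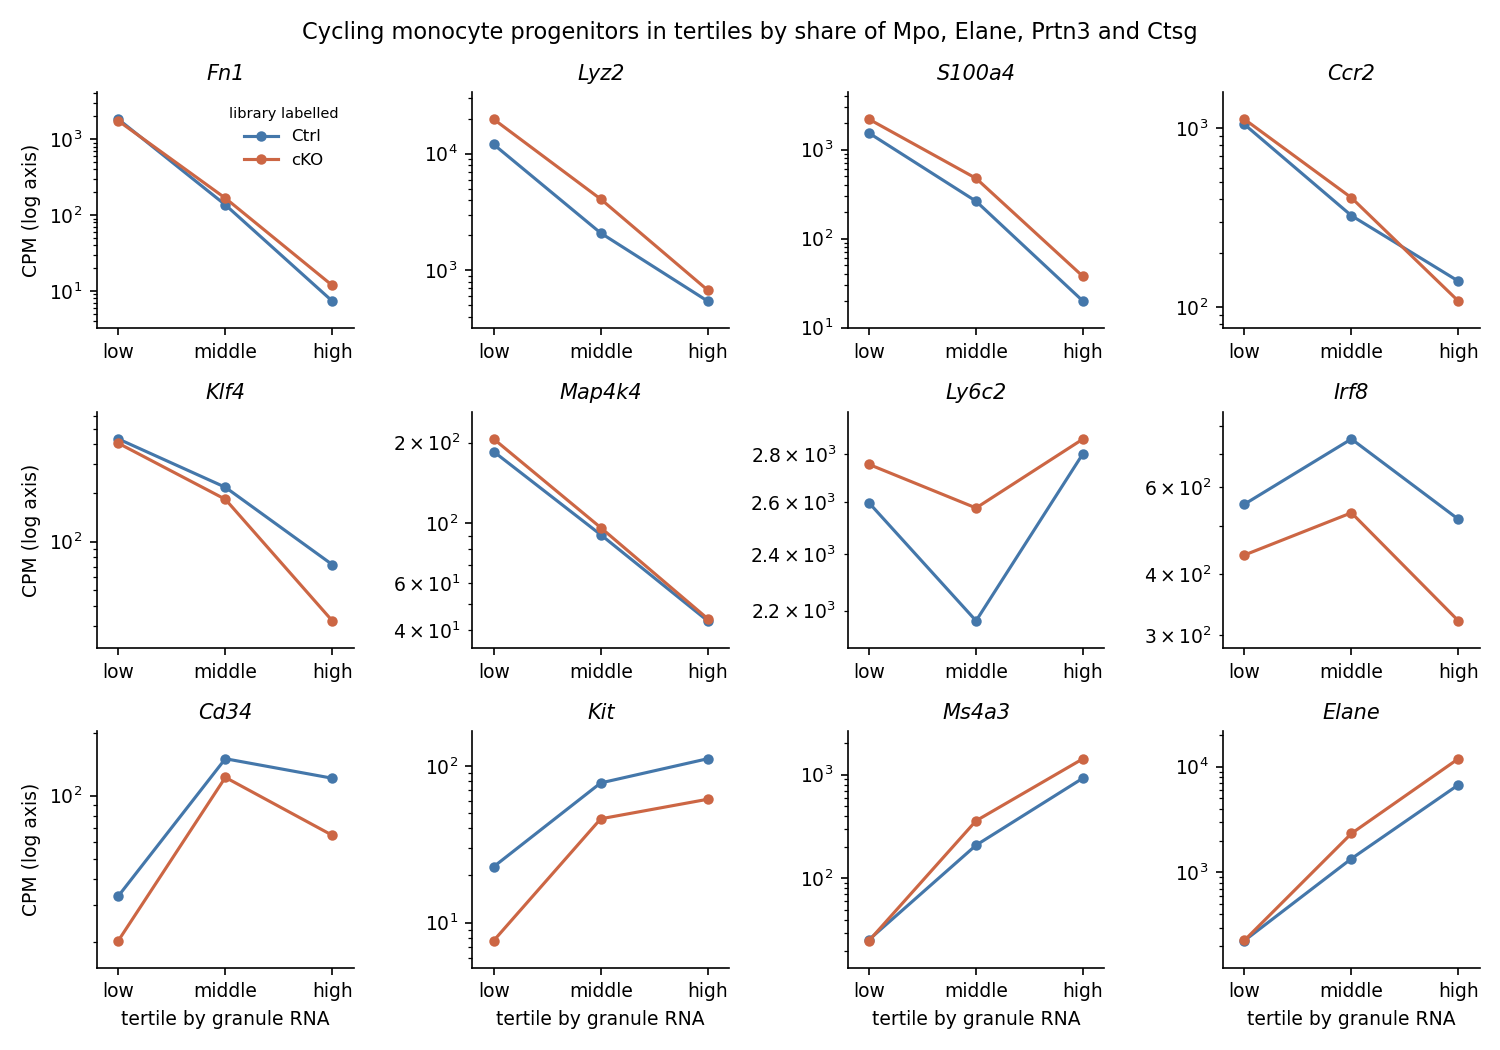
Level of 12 genes in the low, middle and high tertile of members by primary granule share, in CPM on a log axis, with 1 line for each library. Elane is 1 of the 4 genes behind the split. Monocyte genes such as S100a4 and Lyz2 step down and Ms4a3 and Kit step up in both libraries, Ly6c2 stays nearly level, and Cd34 and Irf8 are highest in the middle tertile.

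The monocyte and progenitor lists gave the same picture, and the lists of the cell cycle did not follow it as a pair. The monocyte lineage list had log2 ratios of low over high tertile of 2.13 and 2.63, which were 2.16 and 2.53 after all members were thinned to 2000 UMIs. The progenitor list had ratios of -1.15 and -1.58. S phase had ratios of -0.18 and -0.15, and G2/M, whose list holds Mki67 and Top2a of the rule, had 0.95 and 1.04. The low tertile was shallower, and each of its members had to reach the same 2 UMIs of Mki67 and Top2a. The part of this in the G2/M ratios was not tested. MHC class II was higher in the low tertile, by 1.49 and 1.30, and so was the interferon response, by 1.36 and 1.37.

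RNA of other cell types was present at low levels and differed between the labels. The 13 erythroid genes made up 0.0937% of members' UMIs labelled Ctrl and 0.00799% labelled cKO, with Hbb-bs, a beta globin, the most abundant at 310 and 6.12 CPM. In the library labelled Ctrl, 1 barcode held 2052 of 2896 UMIs of Hbb-bs, and without the top barcode of each library the log2 ratio moved from -5.66 to -3.95. For the whole list, 1 barcode held 3917 of 8745 UMIs labelled Ctrl, and the ratio moved from -3.55 to -2.73 without the top barcodes, an alternative chosen after the values were seen. The 11 genes of the B lineage made up 0.0989% and 0.0270%, with Igkc, the kappa light chain, at 676 and 54 CPM, and the 8 plasma cell genes 0.0858% and 0.0171%, with Igha at 623 and 13.3 CPM. Single barcodes labelled Ctrl held 3513 of 9226 and 2597 of 8006 UMIs of these lists, whose ratios moved from -1.87 to -1.20 and from -2.33 to -1.78 without the top barcodes. After thinning to 2000 UMIs, Igkc was found in 50.3% of members labelled Ctrl and 9.56% labelled cKO. Among defining genes of the B lineage, Cd79a lay at 5.89 and 0.299 CPM and Ebf1 at 4.29 and 0 CPM, while Cd79b was found with all UMIs in 44.7% and 50.2% of members and after thinning in 7.57% and 4.38%. The part of free RNA or of doublets in these values was not tested.

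The 11 genes of basophils, mast cells and eosinophils made up 0.0368% of members' UMIs labelled Ctrl and 0.00602% labelled cKO, with Mcpt8 the most abundant and Ccr3 at 0. Prss34, a basophil protease, lay at 132 and 2.39 CPM, but 1 barcode held 1183 of its 1234 UMIs labelled Ctrl, and the log2 ratio moved from -5.79 to -1.39 without the top barcodes. For Mcpt8, 1 barcode held 761 of 1135 UMIs and the ratio moved from -1.57 to -0.52. For the whole list, 1 barcode held 2308 of 3430 UMIs labelled Ctrl, and the ratio moved from -2.61 to -1.35. The 18 genes of secondary and gelatinase granules made up 0.825% and 0.814% of members' UMIs, against 17.7% and 29.2% in other kept barcodes, and 3 of them are the genes that the rule limits in members. Camp, of the rule, was found after thinning in 66.7% and 54.2% of members and in 91.4% and 67.5% of B-lineage barcodes. B cells should lack it, but the part of mixed barcodes in that group was not tested. Elane was found in 71.5% and 74.5% of members against 48.3% and 25% of B-lineage barcodes, with median depths of 15025 and 3989 UMIs labelled Ctrl before thinning. Macrophage genes summed to 0.00864% and 0.00976%, with Apoe the most abundant and Spic at 0, the 12 genes of T and NK cells to 0.000589% and 0.000224%, and the 6 of megakaryocytes to 0.00145% and 0.000313%. Nonclassical monocyte genes, of which Spn was the most abundant, made up 0.0419% and 0.0394%, and plasmacytoid dendritic genes 0.0202% and 0.0193%.

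Between the labels, few genes of members were higher and more were lower in the library labelled cKO. Of 12024 genes with at least 10 UMIs, 90 were at least 2-fold higher in the library labelled cKO with an interval clear of no change (0.749%) and 501 were at least 2-fold lower (4.17%). Under median-of-ratios scaling these counts were 163 and 319. The median log2 ratio over all these genes was -0.20, with 3936 above 0 and 8042 below, the background for the counts above and below 0 in each gene list. Scaling by the median of ratios instead of the total shifted every ratio by 0.187 in members and by 0.573 in other kept barcodes, so ratios in members that lie less than the first of these below 0 turn sign with the scaling. Genes of ribosomal proteins made up 24.1% of members' UMIs labelled Ctrl and 26.7% labelled cKO. Smaller classes differed more by fold, with haemoglobin at 0.0734% and 0.00209% and immunoglobulin at 0.175% and 0.0280%.

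Genes of primary granules took a larger share of members' UMIs in the library labelled cKO, a direction that held with the rule on all UMIs but not with the rule after thinning. The 12 genes made up 1.66% of members' UMIs labelled Ctrl and 2.41% labelled cKO, a log2 ratio of 0.54 (0.53 to 0.55) against 0.24 in other kept barcodes, and 11 of 12 had a ratio above 0, though none was called. Elane had a ratio of 0.79 (0.77 to 0.81) and Prtn3, proteinase 3, lay at 3434 and 5680 CPM, a ratio of 0.73. Ctsg, cathepsin G, lay at 1510 and 2573 CPM, a ratio of 0.77. Mpo, with a ratio of 0.07, differed by less than Elane, Prtn3 and Ctsg. The list's ratio turned to -0.37 when the rule was applied after thinning, which left 80 and 25 members. Mpo turned to -1.30 there, Elane to -0.46 and Ctsg to -0.12, so Mpo did not differ least under that rule. Nkg7 lay at 258 and 463 CPM, with a ratio of 0.85, and Ms4a3 at 483 and 745 CPM, with a ratio of 0.62, and both turned with the rule after thinning, to -2.80 and -0.74.

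The monocyte list also took a larger share. The 40 genes made up 1.72% and 2.09% of members' UMIs, a log2 ratio of 0.28 (0.27 to 0.29), against 0.51 in other kept barcodes, with 27 genes above 0 and 13 below. Lyz2 lay at 3555 and 5954 CPM, a ratio of 0.74, and S100a4 at 432 and 656 CPM, a ratio of 0.60. The single gene of the list called was Ms4a6d, called higher, beside 0.749% of all genes. It lay at 14.9 and 56.1 CPM, a ratio of 1.91, and belongs to a family of near-identical neighbours. Genes of the rule had ratios of -0.31 for F13a1, a transglutaminase, -0.03 for Fn1, fibronectin, 0.11 for Ccr2, 0.29 for Ms4a6c and -0.12 for Csf1r. The ratio of Ccr2 turned to -0.027 with the mean of per-barcode proportions. It was -0.049 without barcodes that occur in both libraries. Ly6c2 had a ratio of 0.11, which was 0.30 under median-of-ratios scaling.

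Irf8 and Klf4 lay closer between the labels in members than in the other kept barcodes, a difference that was not tested, while the list of transcription factors did not. Irf8 had a log2 ratio of -0.52 (-0.59 to -0.46) in members and -2.05 in other kept barcodes, and Klf4 of -0.27 (-0.38 to -0.16) and -1.62. This was not particular to members. In non-cycling monocyte-type barcodes, labelled Ctrl and cKO, Irf8 lay at 367 and 282 CPM and Klf4 at 345 and 207 CPM. Zeb2, a repressor needed for the monocyte identity, lay at 426 and 244 CPM in members, a ratio of -0.80. The 25 transcription factors made up 0.254% and 0.200% of UMIs, a ratio of -0.34 against -0.24 in other kept barcodes, with 9 above 0 and 16 below. The 2 called lower, beside 4.17% of all genes, were Klf2, a factor of quiescence, at 98.7 and 43.9 CPM, and Egr1, an immediate-early factor, at 70.6 and 31.6 CPM, with ratios of -1.17 and -1.16 that were -0.44 and 0.061 with the rule after thinning. Spi1, which encodes PU.1, had a ratio of 0.31 and lay at 236 and 292 CPM. The 25 receptors of growth factors and migration made up 0.250% and 0.230%, a ratio of -0.12 that was 0.067 under the other scaling, and none was called.

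Most progenitor genes had ratios below 0. The 20 genes made up 0.342% and 0.316% of UMIs, a log2 ratio of -0.11 that turned to 0.072 under median-of-ratios scaling, while the median gene had -0.47 and 16 of 20 lay below 0. Kit had a ratio of -0.86 (-1.06 to -0.66), Sox4, a factor of immature cells, of -0.83, Cd34 of -0.57 (-0.72 to -0.41) and Myb of -0.50. With the rule after thinning, Sox4 turned to 0.28 and Cd34 to 0.25. Npm1, the nucleolar chaperone and the most abundant gene of the list, lay at 1733 and 1577 CPM, a ratio of -0.14. Ifitm1, an interferon-induced membrane protein also found in stem cells, went the other way, at 82.0 and 313 CPM, a ratio of 1.93 (1.81 to 2.06). Ifitm1 (chr7:140967221-140969825) was higher in other kept barcodes as well, with a ratio of 2.72.

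Genes of S phase had a lower share of UMIs in members labelled cKO, and for G2/M the direction depended on the scaling. The 43 genes of S phase made up 0.510% of members' UMIs labelled Ctrl and 0.408% labelled cKO, a log2 ratio of -0.32 (-0.34 to -0.30) against -0.78 in other kept barcodes, and 39 of 43 lay below 0. The 54 genes of G2/M made up 1.17% and 1.07%, a ratio of -0.13 that turned to 0.062 under the other scaling, with 40 below 0 and with Mki67 and Top2a of the rule included. None of either list was called. Pcna, the replication clamp, had a ratio of -0.23. Ccnb1, the cyclin of mitosis, lay at 74.0 and 100.1 CPM, a ratio of 0.44, and Tubb4b, a tubulin, at 269 and 395 CPM, a ratio of 0.55, so some genes of G2/M went against the list. With the rule after thinning, Pcna turned to 0.079 and Ccnb1 to -0.097. Ccnd2, a cyclin of G1, had a ratio of -0.73, and Cdkn1a, the inhibitor p21, of 0.66. The cyclins and CDK list as a whole had -0.07, and 0.12 under the other scaling.

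**Figure D4:**
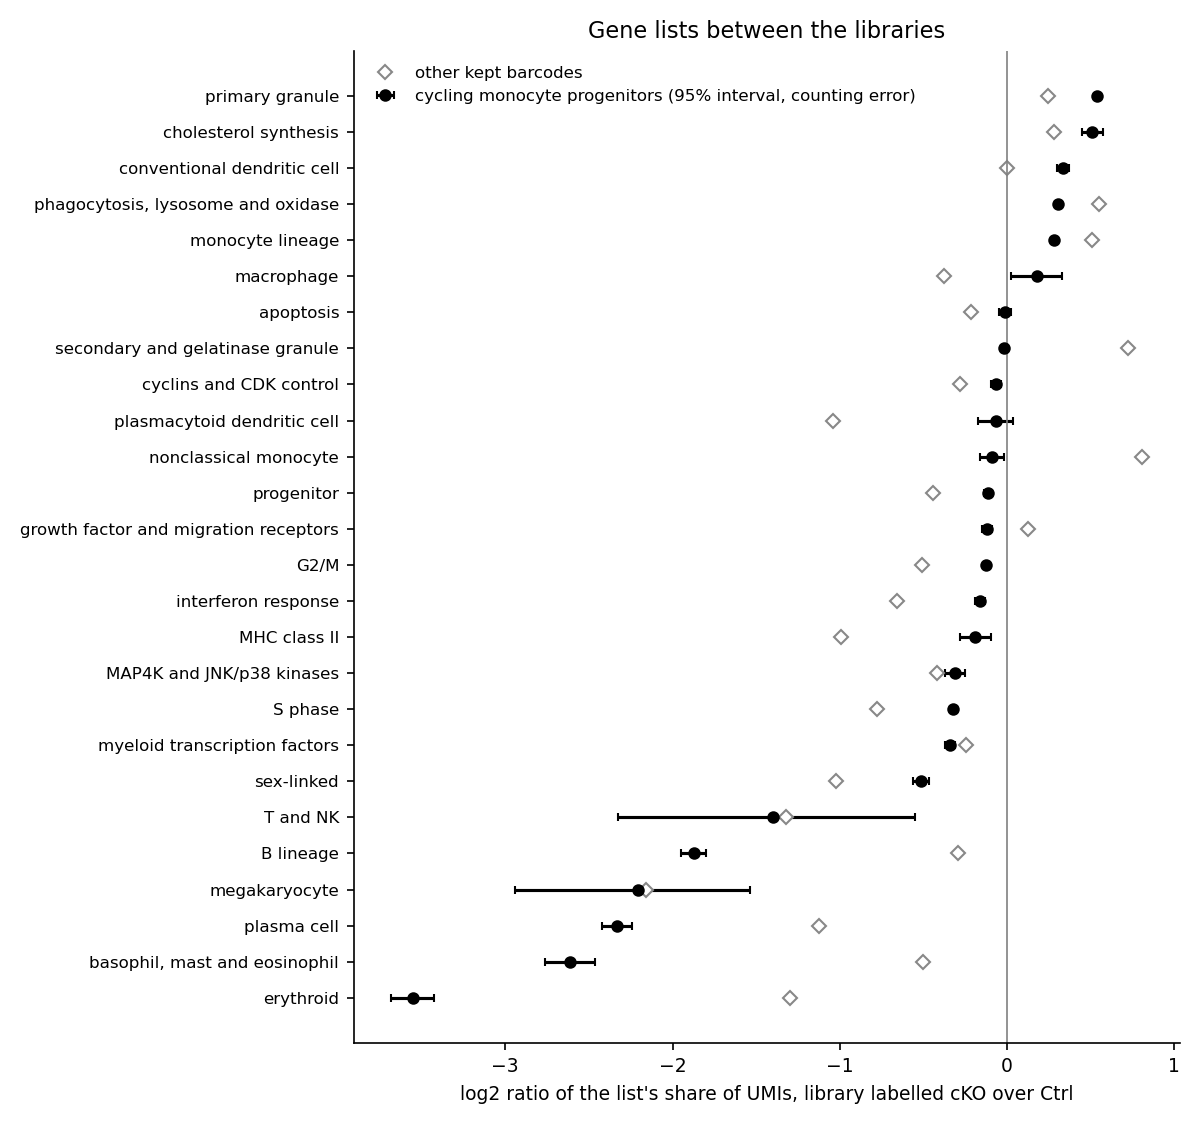
Log2 ratio of cKO over Ctrl in the share of UMIs of each gene list, for members (black points, with the 95% interval from counting error) and for other kept barcodes (open diamonds). Primary granule and cholesterol genes lie above 0 in members, at 0.54 and 0.51, and erythroid genes lie lowest, at -3.55, with plasma cell and basophil genes also below 0. Without the barcode of each library with most UMIs of the list, these 3 lists lie at -2.73, -1.78 and -1.35.

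Of the kinases in the pathway of Map4k4, 19 of 20 listed genes had counts. They made up 0.0708% and 0.0571% of members' UMIs, a log2 ratio of -0.31 (-0.37 to -0.25) against -0.42 in other kept barcodes, with 16 of 19 below 0. Map4k1, a relative of Map4k4 in blood cells, lay at 49.5 and 50.2 CPM, a ratio of 0.02. Mapk8, which encodes JNK1, had a ratio of -0.55 and Mapk14, which encodes p38 alpha, of -0.42. The 3 called lower, beside 4.17% of all genes, were Map4k3, Map4k5 and Tnik, named after their values were seen, all under 12 CPM in both libraries.

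Genes of phagocytosis, lysosomes and the oxidase made up 0.582% and 0.717% of members' UMIs, a log2 ratio of 0.30, with 18 of 22 above 0. Cyba, a subunit of the oxidase, lay at 423 and 724 CPM, a ratio of 0.77, and Tyrobp, an adaptor of activating receptors, at 818 and 1160 CPM, a ratio of 0.50. Ifi30, a lysosomal thiol reductase, and Ctsc, the protease that activates granule enzymes, are outside this list and were among the 10 highest genes of members. Ifi30 lay at 238 and 466 CPM in members, a ratio of 0.97 against 0.05 in other kept barcodes, and Ctsc at 167 and 322 CPM, a ratio of 0.94 against 0.09.

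Of the 10 genes of MHC class II, 4 were called lower in members labelled cKO, beside 4.17% of all genes, H2-Aa, H2-Ab1, H2-Eb1 and Cd74, with log2 ratios between -1.09 and -2.02. B cells also express class II genes, and the B lineage list was lower there too, with a ratio of -1.87, or -1.20 without the top barcodes. H2-Aa lay labelled Ctrl and cKO at 7.36 and 0.647 CPM in cycling neutrophil precursors and at 3.94 and 0.796 CPM in granule-rich progenitors. The part of RNA from B cells in the members' ratios was not tested. H2-DMa, which loads peptides, was the most abundant gene of the list at 119 and 128 CPM, a ratio of 0.10, so the list's summed ratio was -0.19 while its median was -0.69. Dendritic cell genes had a summed ratio of 0.34 and a median of -0.13, since Cst3, a protease inhibitor that monocytes share, holds most of their UMIs at 1052 and 1364 CPM. Zbtb46 was found after thinning in 0.360% and 0% of members.

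Genes of the interferon response had a log2 ratio of -0.16 in members, which turned to 0.026 under the other scaling, against -0.66 in other kept barcodes, and 20 of 28 lay below 0 with none called. Ifi27l2a lay at 241 and 177 CPM, a ratio of -0.44. Genes of cholesterol synthesis made up 0.0440% and 0.0626% of UMIs, a ratio of 0.51 (0.45 to 0.57) against 0.28 in other kept barcodes, with 16 of 20 above 0. Fdps (chr3:89093588-89101959), farnesyl diphosphate synthase, lay at 90.2 and 188 CPM, a ratio of 1.06, while Hmgcs1, an enzyme of the early pathway, had a ratio of -0.10. Apoptosis genes had a summed ratio of -0.011 (-0.046 to 0.023) that was 0.18 under the other scaling, against -0.22 in other kept barcodes. Their median was -0.20, with 8 of 29 above 0 and 21 below, and none was called.

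By the rule for named genes, the highest in the library labelled cKO after Ifitm1 were Dmkn, a secreted protein of skin, at 53.3 and 155 CPM, and Wfdc17, a small secreted protein of myeloid cells, at 64.3 and 174 CPM, with log2 ratios of 1.54 and 1.43. The rest of the 10 highest were Fdps, Wfdc21, Hp, which encodes haptoglobin, Ifi30, Ctsc, Nkg7 and Tspo, a mitochondrial membrane protein, with ratios between 0.84 and 1.06. In other kept barcodes Wfdc21, Hp and Tspo had ratios of 0.85, 1.0 and 1.22, so they were higher there as well. Globin and immunoglobulin genes are left out of this ranking. The lowest others, beside the basophil genes, included immediate-early genes and nuclear RNAs. Fosb lay at 159 and 49 CPM, a ratio of -1.70, and Jun at 449 and 213 CPM, a ratio of -1.07. Cd69, an early activation marker, lay at 109 and 51.2 CPM, and Malat1, a long nuclear RNA, at 4827 and 2091 CPM, a ratio of -1.21. Kcnq1ot1, another nuclear RNA, had a ratio of -1.08. In other kept barcodes Fosb, Jun, Malat1 and Kcnq1ot1 had ratios of -1.59, -0.99, -1.40 and -2.06. They were thus lower in both sets of barcodes.

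**Figure D5:**
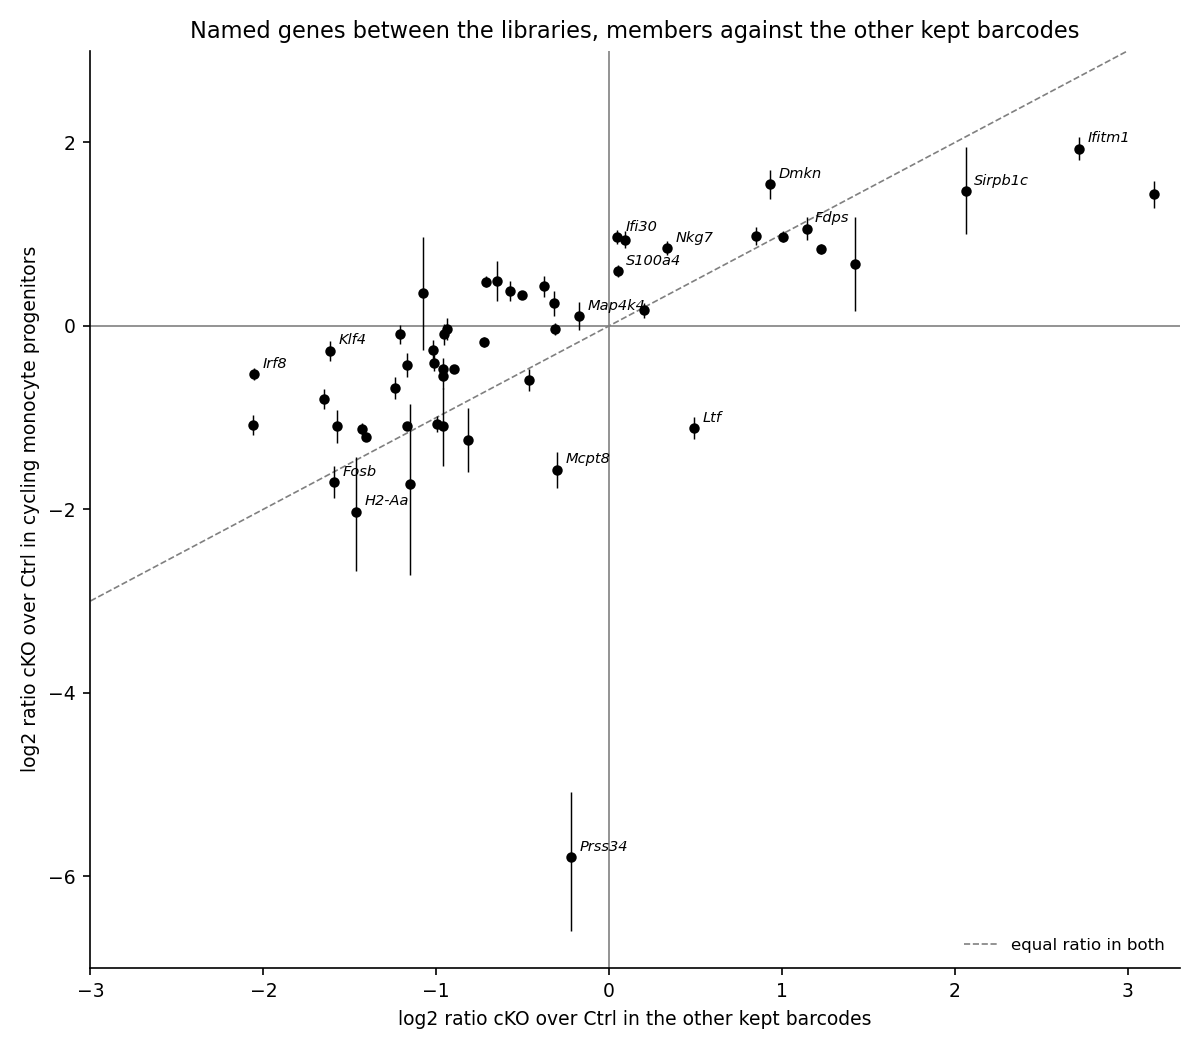
Log2 ratio of cKO over Ctrl in members (vertical axis, bars for the 95% interval from counting error) against the same ratio in other kept barcodes (horizontal axis), for Map4k4 and the genes named from all genes by rank, with a dashed line where both are equal. Ifi30 lies above the line near 0 on the horizontal axis, and Irf8 and Klf4 lie above the line at -2.05 and -1.62.

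Xist, transcribed from the inactive X chromosome, lay at 1026 and 732 CPM in members, and the 4 Y-linked genes of the list were at 0 in both libraries, the pattern of female cells. In the non-cycling monocyte-type barcodes, the primary granule list had a ratio between the labels of 0.16 and the monocyte list of 0.18, against 0.54 and 0.28 in members. The difference between these groups of barcodes was not tested, since each has 1 library for each label.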

How the data were processed

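For each library the authors deposited a matrix of UMI counts, genes by barcodes, which the submitters' processing notes tie to Cell Ranger 5.0.0 and mm10. Its values are unnormalized and cover only barcodes called as cells. Members and gene lists were chosen with earlier results of these data known. UMIs were summed over barcodes of a group and library and divided by their total (CPM). Log2 ratios used genes with at least 10 UMIs over both groups and carry exact 95% binomial intervals. A gene was called at 2-fold or more with an interval that excluded no change, in both libraries where groups of barcodes were compared. Cells were not treated as replicates. No barcode was removed as a doublet, and members with at least 3 UMIs of other lineages were left out as an alternative.

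Named genes are those of the rule, Map4k4, the 12 highest over other kept barcodes, the 12 highest and 8 lowest against non-cycling barcodes, the 10 highest and 10 lowest between the labels, all at 100 CPM or more, and in each of 27 lists the 6 most abundant and the 3 highest and 3 lowest at 20 CPM or more, of which some are not reported here. Genes of the tertiles were taken by their ratio after the values were seen. Positions are from GENCODE vM21, promoters from RefSeq. The calculations were tested on simulated data and run with numpy 2.4.6, pandas 2.3.3, scipy 1.17.1 and matplotlib 3.10.9 under Python 3.11.15.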

Additional observations from a re-analysis of the deposited data

Results flagged for a closer look

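For 5 named genes the log2 ratio of cKO over Ctrl had opposite signs in members and in the other kept barcodes, with both intervals clear of 0 and at least 1 unit apart. Apoe had 0.49 in members and -0.65 in the others, Crip1 0.24 and -1.02, and S100a10 0.48 and -0.71. Ighm had -0.45 in members and 1.01 in the others, and Lcn2 -0.11 and 1.02. The difference itself was not tested, since each label has 1 library. For Apoe the value in members was 0.28 without the top barcode of each library and -0.83 without the barcodes that occur in both libraries. The ratio of Lcn2 is smaller than the shift between the 2 scalings and was 0.076 under median-of-ratios scaling.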

How the results depend on the processing

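No paired analysis was possible because the groups compared share 1 replicate number only. Shares of members labelled Ctrl and cKO were 6.31% and 4.71% with a floor of 1000 UMIs, 6.61% and 4.86% with at least 4 UMIs of Mki67 and Top2a, 6.72% and 4.90% with a monocyte sum of at least 8, 1.10% and 0.554% with the rule after thinning, 6.34% and 4.70% without members with UMIs of other lineages, and 6.34% and 4.37% without barcodes that occur in both libraries, the last chosen after seeing the data. The share labelled Ctrl was 10.6% with a floor of 4000 UMIs, 8.96% with at least 1 UMI of Mki67 and Top2a, and 6.93% without the tenth of members with most UMIs. The log2 ratio of the shares was -0.76 with the floor of 4000 UMIs and -0.99 after thinning.

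Under median-of-ratios scaling, 163 genes were higher and 319 lower in the library labelled cKO, 373 were higher in members than in other kept barcodes, and 15 of 27 lists instead of 6 had a higher share labelled cKO. With the mean of per-barcode proportions, 138 genes were higher labelled cKO and 1407 were higher than in other kept barcodes. With at least 50 UMIs per gene, 35 were higher and 234 lower, since fewer genes were tested. The monocyte list's ratio of low over high tertile was 2.16 and 2.53 after thinning.

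Some log2 ratios of cKO over Ctrl turned sign, and the cause was not tested. With at least 4 UMIs of Mki67 and Top2a, the macrophage list was -0.016. With per-barcode proportions, the secondary and gelatinase granule list was 0.025, the macrophage list -0.012 and Ccr2 -0.027. Under median-of-ratios scaling, the lists were 0.072 for progenitor, 0.17 for secondary and gelatinase granule, 0.067 for growth factor and migration receptors, 0.098 for nonclassical monocyte, 0.062 for G2/M, 0.12 for cyclins and CDK control and 0.026 for interferon response, and genes were Hist1h2ae 0.012, Npm1 0.051, S100a9 0.13, Lcn2 0.076, Cd47 0.057, Lamp2 0.081, Hmgb2 0.15, Trp53 0.040 and Bnip3l 0.036. With the rule after thinning, the lists were -0.37 for primary granule, 0.0087 for growth factor and migration receptors and 0.057 for cyclins and CDK control. There, genes were Hist1h2ae 0.066, Nkg7 -2.80, Prss34 0.48, Sox4 0.28, Cd34 0.25, Mpo -1.30, Elane -0.46, Ctsg -0.12, Srgn -0.39, Ms4a3 -0.74, Runx1 0.17, Egr1 0.061, Tnfrsf1a -0.11, Cd63 -1.03, Ear2 -0.77, Il7r 1.06, Pcna 0.079, Ccnb1 -0.097, Rb1 0.25, Bak1 -0.32 and Msmo1 -0.63. Without barcodes that occur in both libraries, the lists were 0.18 for secondary and gelatinase granule, 0.023 for nonclassical monocyte and -0.29 for macrophage, and genes were Ccr2 -0.049, Apoe -0.83, S100a9 0.20, Lcn2 0.00024 and Hmgb2 0.0034. Without members with UMIs of other lineages, the secondary and gelatinase granule list was 0.031. Under median-of-ratios scaling, lists whose intervals held 0 were 0.18 for apoptosis and 0.12 for plasmacytoid dendritic cell. Of the other values, 1009 stayed within their counting interval and 532 moved beyond it, where a ratio counts as turned only if its first interval was clear of 0.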
